A study of Mus musculus with 550 samples.

Results

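Dnmt3a knockout (3AKO) cells were compared with wild type (WT) cells in embryoid bodies (EBs), the floating aggregates in which embryonic stem cells differentiate once leukemia inhibitory factor is withdrawn, on day 9 of differentiation. The cells were chosen by their labels for stage and genotype and by 3 limits, at least 50000 reads, at least 2000 detected genes and at most 50% of reads from mitochondrial genes. This kept 88 of 93 3AKO cells and 89 of 91 WT cells, 177 of the 486 cells kept in the whole series. All cells descended from the E14 embryonic stem cell line (strain 129/Ola), the 3AKO cells carrying Dnmt3a -/- and the WT cells no engineered allele. The labels give the same EB differentiation for both genotypes. Sorting placed 1 cell in each well of a plate, and the cells were read by a modified Smart-seq2 protocol, which copies whole polyadenylated transcripts.

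Each library is 1 cell. The study used 2 independent 3AKO clones, but the labels do not tie cells to clones, EBs or cultures, so each genotype counts as 1 sample here and no difference below has a replicate test. WT cells lay on plate 234 and 3AKO cells on plate 236, so genotype and plate cannot be told apart. Each plate was split into 2 library batches, with 60 and 29 kept WT cells and 61 and 27 kept 3AKO cells in batch 1 and batch 2. The batches serve as a repeat of library preparation, not of the culture. The median depth was 363538 and 374958 reads per cell in WT and 221582 and 308227 in 3AKO, and the median number of detected genes was 5592 and 5993 in WT and 5855 and 6069 in 3AKO. The shallowest kept cells held 70903 reads in WT and 75446 in 3AKO. The 5 3AKO cells left out held at most 8977 reads. The 2 WT cells left out held 6122 reads and 1319 detected genes, respectively.

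DNMT3A adds methyl groups to unmethylated CpG sites, together with its relative DNMT3B and the inactive cofactor DNMT3L, while DNMT1 copies the pattern at replication and TET enzymes start its removal. In the early embryo these enzymes keep germline genes silent, and inherited methylation marks which parental allele of an imprinted gene is read. EBs at day 9 hold epiblast-like cells and early derivatives of the germ layers.

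Levels are given as CPM, counts scaled to the same total reads per genotype or cell, over the summed cells of a genotype. Differences are log2 ratios of 3AKO to WT after adding 1 CPM to each level, which understates the change of weakly expressed genes. A gene is called tested, meaning compared, if 20% or more of the WT or of the 3AKO cells held a read of it in each batch, and higher or lower if it differed at least 1.5-fold in the same direction in both batches. Intervals around levels and shares are exact 95% intervals and cover counting error only, since reads here carry no molecular identifiers.

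The targeted gene followed the labels. Dnmt3a (chromosome 12, 3806007 to 3914443, GRCm38) had 166 CPM in WT (161 to 170) and 25.2 in 3AKO (23.2 to 27.3). In WT the levels were 177 CPM in batch 1 and 144 in batch 2, and in 3AKO 26.1 and 23.9. Single WT cells ranged from 0 to 746 CPM with a median of 131, whereas the median 3AKO cell had no read and the highest 260 CPM. The log2 ratio was -2.67.

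Among the other methylation enzymes, Dnmt3l was higher in 3AKO and the remainder were not called. Dnmt3l had 53.3 and 35.3 CPM in WT and 160 and 81.4 in 3AKO in batch 1 and batch 2, a log2 ratio of 1.42. Dnmt3b had 155 and 189 CPM in WT and 193 and 336 in 3AKO, so only batch 2 differed by more than the limit. The maintenance enzyme Dnmt1 had 106 and 68.2 CPM in WT and 54.6 and 57.1 in 3AKO. Tet1 had 162 and 227 CPM in WT against 135 and 144 in 3AKO, and Tet2 88.4 and 70.6 against 60.7 and 23.3. All 4 genes kept their direction in both batches. Of 9 tested genes of the TET and base excision pathway, 1 was higher and 1 lower (11.1% each, against 3.65% and 5.96% of all tested genes). Gadd45b, which takes part in active demethylation, was higher with a log2 ratio of 1.12, and the thymine glycosylase Mbd4 was lower with -1.07. The list median was -0.34, with -0.26 in batch 1 and -0.65 in batch 2, against -0.10 over all tested genes.

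Across the transcriptome, 336 of 9201 tested genes were higher in 3AKO, or 3.65%, and 548 were lower, or 5.96%. At 2-fold in both batches, 98 genes were higher and 146 lower. The median log2 ratio of all tested genes was -0.10, with -0.07 in batch 1 and -0.05 in batch 2, and group medians below are read against it. Across the tested genes, which are not independent replicates, the log2 ratios of the batches correlated with r = 0.22. The log2 ratio was negative in both batches for 32.9% of tested genes and positive in both for 23.9%.

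The lower genes were not spread evenly along the chromosomes. Chromosome 6 held 64 lower genes of 409 tested (15.6%) and chromosome 8 held 74 of 539 (13.7%), while the remaining autosomes and the X chromosome lay between 3.27% on chromosome 19 and 9.14% on chromosome 12. In windows of 10 Mb with at least 10 tested genes, the median log2 ratio lay at least 0.25 below that of all tested genes in each batch for 10 of 245 windows. All of them fell into 3 stretches, on chromosome 6 from 80 to 100 Mb and on chromosome 8 from 0 to 60 Mb and from 110 to 130 Mb. A single window, the first of chromosome 6, lay as far above. These stretches were picked from the values they are described with.

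**Figure D1:**
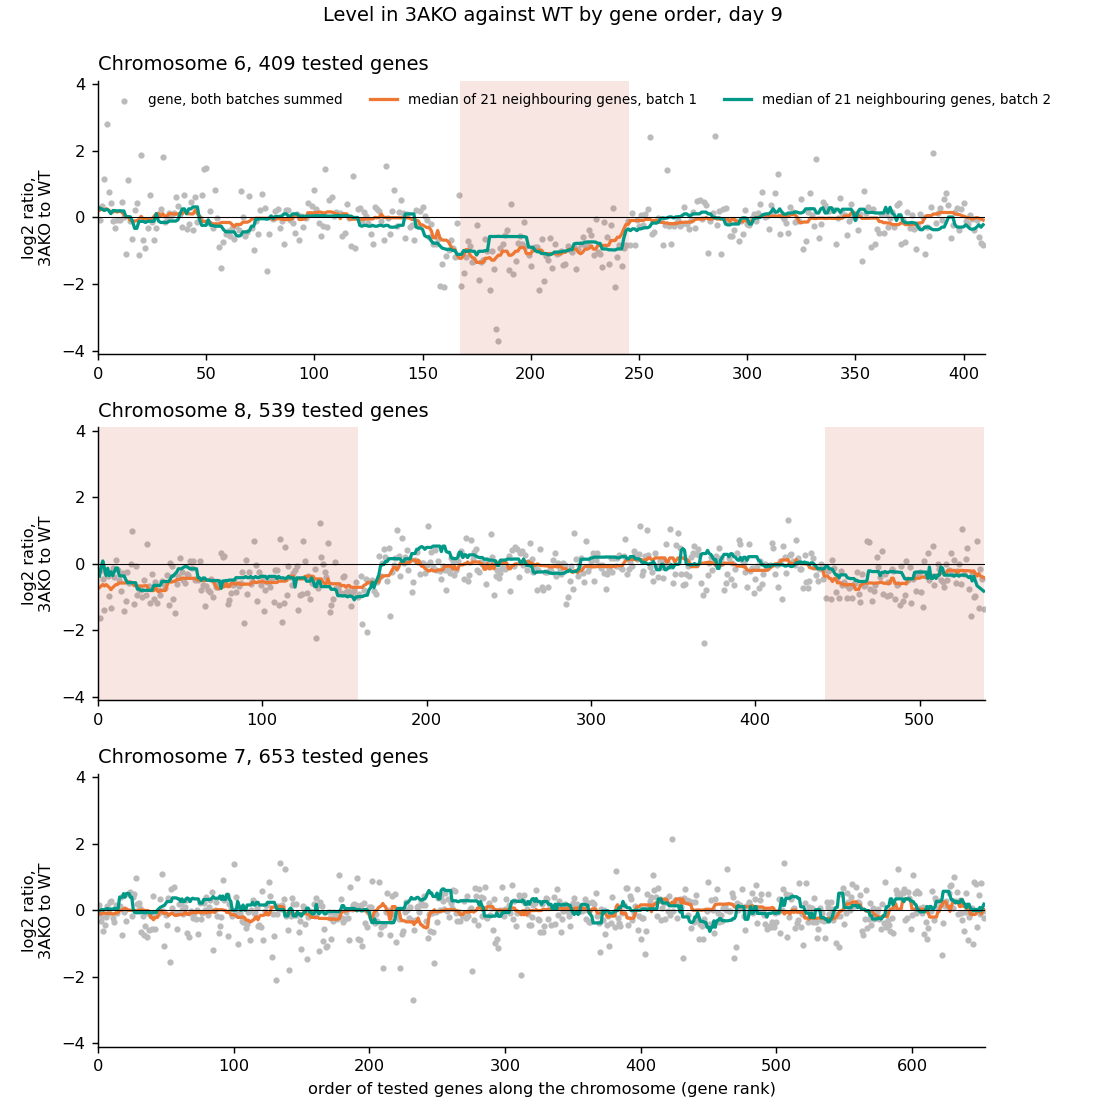
Log2 ratio of 3AKO to WT on day 9 (y axis) for the tested genes of chromosomes 6, 8 and 7 in their order along the chromosome (x axis, gene rank), with grey points for genes over both batches and lines for the running median of 21 neighbouring genes in each batch. The shaded stretches are those at least 0.25 below all tested genes in both batches, where the 78 genes of the chromosome 6 stretch had a median of -0.99, and chromosome 7 is shown as a chromosome without such a stretch.

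The chromosome 6 stretch held 78 tested genes, of which 41 (52.6%) were lower, none was higher and 63 had a negative log2 ratio in both batches. Its median log2 ratio was -0.99, with -1.07 in batch 1 and -0.96 in batch 2. Summed over the stretch, WT cells of batch 1 had 8260, 11127 and 16518 CPM as the lowest, median and highest value, and 3AKO cells 1538, 5268 and 15064. In batch 1, 58 of 61 3AKO cells lay below the lowest WT cell, and in batch 2, with medians of 8714 CPM in WT and 4921 in 3AKO, 15 of 27 did. A pair of 3AKO cells of batch 1 lay above the WT median.

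On chromosome 8, the first stretch held 158 tested genes with 40 lower, 4 higher and a median of -0.58, and the second 97 tested genes with 18 lower, none higher and a median of -0.47. The genes between them, from 70 to 110 Mb, had window medians between -0.08 and -0.01. Summed over the first stretch, the median cell had 14726 CPM in WT and 9754 in 3AKO in batch 1, and 14565 and 9110 in batch 2, and all 88 3AKO cells lay below the WT median of their batch. In the second stretch all 61 3AKO cells of batch 1 and 21 of 27 of batch 2 did. Chromosome 8 from 60 to 70 Mb (6 of 28 genes lower) missed the limit in batch 2, with a median 0.08 below all tested genes. Chromosome 6 from 70 to 80 Mb (10 of 26 genes lower) and chromosome 12 from 80 to 90 Mb (17 of 57 lower, 3 higher) came just short of the limit in batch 1, with medians 0.23 below all tested genes in each. The 3 stretches held 3.62% of the tested genes and 99 of the 548 lower genes (18.1%). Outside them, 449 of 8868 genes (5.06%) were lower and 332 (3.74%) higher.

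Cells that had no part in choosing the stretches gave the following values. Relative to all tested genes, the day 3 library labelled 3AKO of batch 1 lay at -0.99, -0.51 and -0.49 against day 3 WT for the chromosome 6 stretch and the first and second stretch of chromosome 8. The day 3 library labelled 3BKO (Dnmt3b -/-) of batch 2 lay at -0.96, -0.47 and -0.50. The remaining day 3 libraries did not show the difference, with -0.04, -0.06 and 0.12 for the label 3AKO of batch 2 and 0.00, 0.02 and -0.07 for the label 3BKO of batch 1. The libraries with low stretches were the ones with little Dnmt3a, which had 25.8 CPM in the first and 12.8 in the second, against 335 and 587 CPM in the others and 455 and 267 in WT. The labels of the batch 2 knockout libraries of day 3 thus went against their Dnmt3a levels. Both knockout libraries with low stretches lay on the same plate, and the remaining knockout libraries of day 3 shared another. WT cells of day 3 lay on a plate of their own. Among the day 3 knockout libraries, low stretches and low Dnmt3a therefore followed the plate and not the label, and the cause was not tested. Dnmt3b had 85.1 CPM in the batch 2 library labelled 3AKO and 185 in that labelled 3BKO, against 523 in WT. On day 9, where Dnmt3b had 15.9 and 16.8 CPM in 3BKO, the 3BKO cells lay at 0.12 and 0.17 for the chromosome 6 stretch in batch 1 and batch 2 and between -0.02 and 0.06 for those of chromosome 8. The day 3 comparisons share their WT cells, as do those of day 9. RNA reads do not give the number of DNA copies of a stretch, which was not measured here.

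Several of the lowest genes lay in these stretches. Vax2, a homeobox gene of the ventral eye, had 47.9 and 19.9 CPM in WT in batch 1 and batch 2 and 3.37 and 0 in 3AKO, the lowest log2 ratio of any named gene at -3.73. Its antisense neighbour Vax2os had 64.4 and 27.9 CPM in WT and 7.24 and 0 in 3AKO, and since strand use in counting is not given in the sources used here, reads of genes that overlap cannot be told apart. At the depth of 3AKO batch 2, a count of 0 allows up to 0.303 CPM. Reads of Vax2 were found in 27% of WT cells and 3.41% of 3AKO cells after thinning each cell to 50000 reads, as for all shares below, and 53.2% of its 3AKO reads came from 1 cell. Both genes were far below the median of their stretch. Of 26 eye field and dorsoventral homeobox genes listed, 4 were tested and these 2 were the ones called.

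Other named members of the chromosome 6 stretch had log2 ratios below that median. The taurine transporter Slc6a6 had 309 and 191 CPM in WT and 96.0 and 93.2 in 3AKO. The mitochondrial folate enzyme Mthfd2 had 109 and 85.3 CPM in WT and 55.5 and 41.7 in 3AKO. The Polycomb subunit Pcgf1, the zinc finger gene Zfp638 and the mitochondrial ribosomal gene Mrpl19, of which 36% of exon bases overlap Gcfc2, had log2 ratios of -1.31, -1.59 and -1.67. In the window just before the stretch, the citrate cycle enzyme Suclg1 (-1.17), the actin-binding peptide Tmsb10 (-0.92), the histone demethylase Kdm3a (-0.66) and the Wnt repressor Tcf7l1 (-0.98) were lower too. On chromosome 8, the autophagy protein gene Map1lc3b had 648 and 446 CPM in WT and 325 and 216 in 3AKO, and 10 of 88 3AKO cells lay above the WT median.

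Zfp42, the naive pluripotency marker also known as Rex1, lies in the first chromosome 8 stretch (43295063 to 43306980). It had 1023 and 848 CPM in WT and 551 and 336 in 3AKO, a log2 ratio of -1.06. Single cells ranged from 0 to 5145 CPM with a median of 687 in WT, and from 0 to 3716 with a median of 250 in 3AKO, so the genotypes overlapped. The stretch as a whole had a median of -0.58. Prdm14, a naive regulator on chromosome 1, was lower as well, with 47.2 and 58.2 CPM in WT and 28.7 and 21.8 in 3AKO, and Il6st, the receptor subunit that carries leukemia inhibitory factor signals, was higher, with 10.8 and 13.1 against 20.5 and 42.7. The 17 tested naive genes had a median of -0.24, the 15 core pluripotency genes -0.06 and the 13 primed epiblast genes 0.07, the last with -0.37 in batch 1 and 0.83 in batch 2. Of the primed genes only Dnmt3a itself was called.

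Glycolysis genes were the list with the highest median among those with at least 10 tested members. Glycolysis turns glucose into pyruvate and lactate, and its enzymes are among the targets of hypoxia-inducible factors. Of 22 tested glycolysis genes, 7 were higher (31.8% against the 3.65% of all tested genes), none was lower, and 15 were above 0 in both batches. The median log2 ratio was 0.61, with 0.62 in batch 1 and 0.82 in batch 2. Summed over all 25 listed genes, WT cells had 5286, 24662 and 52722 CPM as the lowest, median and highest value in batch 1 and 3AKO cells 4222, 36986 and 80449. In batch 2 these were 5305, 17407 and 34550 CPM in WT and 9987, 35684 and 60379 in 3AKO. The ranges overlapped, but 53 of 61 and 24 of 27 3AKO cells exceeded the WT median of their batch. The median 3BKO cell had 32944 and 22087 CPM.

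**Figure D2:**
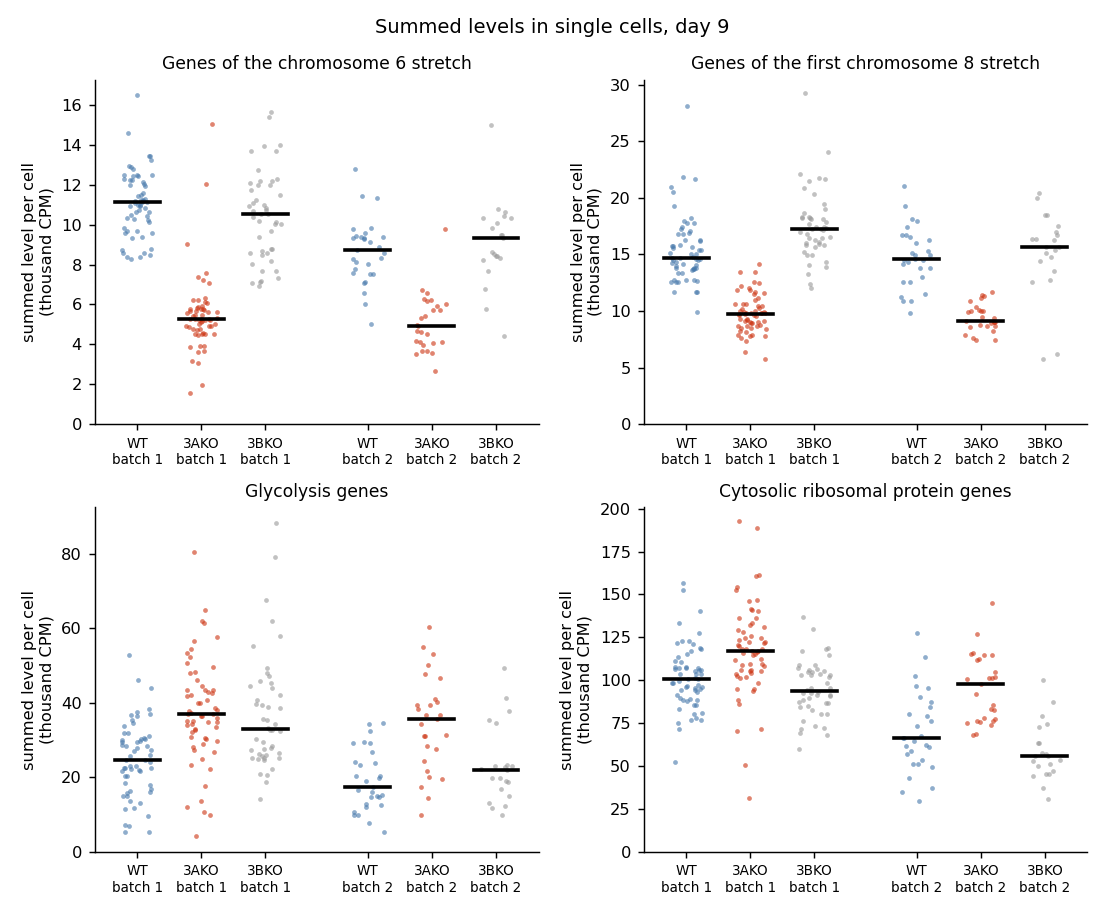
Summed level per cell, in units of 1000 CPM, (y axis, from 0) by genotype and batch (x axis) on day 9 for the chromosome 6 stretch, the first chromosome 8 stretch, glycolysis genes and cytosolic ribosomal protein genes, with a point for each cell and a black line for the median. In the chromosome 6 panel 58 of the 61 3AKO cells of batch 1 lie below the lowest WT cell, while in the glycolysis and ribosomal panels the genotypes overlap with higher medians in 3AKO.

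The increase in CPM was largest for aldolase A, which splits fructose bisphosphate. Aldoa (chromosome 7, 126795234 to 126800751) had 4569 and 2947 CPM in WT and 7634 and 6369 in 3AKO, a log2 ratio of 0.83. The median cell had 3876 CPM in WT and 6933 in 3AKO, and 76 of 88 3AKO cells were above the WT median of their batch. The pyruvate kinase gene Pkm had 3264 and 2264 CPM in WT and 5272 and 4729 in 3AKO, with 74 of 88 cells above that median. Gapdh, often used as a reference for normalization, had 2363 and 1463 CPM in WT and 3751 and 2993 in 3AKO. Gpi1, Pgk1 and the brain-type aldolase Aldoc had log2 ratios of 0.97, 0.77 and 0.88. Slc16a3, which exports lactate, had 202 and 119 CPM in WT and 365 and 324 in 3AKO, the highest ratio of the 7 at 1.00. Several of these genes have processed pseudogenes with near-identical sequence, and reads that mapped to several places were left out of counting, so their levels are uncertain.

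Of 22 tested genes of the hypoxia response, 7 were higher (31.8% against the 3.65% of all tested genes) and Kdm3a alone was lower. In both batches 13 were above 0, and the median log2 ratio was 0.54, with 0.62 and 0.52 in the batches. Bnip3, a mitophagy receptor, was the most widely detected of the 7, with 109 and 99.2 CPM in WT and 228 and 285 in 3AKO, although 22.3% of its exon bases overlap the gene model Gm45507. Ndrg1 had 32.6 and 14.8 CPM in WT and 91.8 and 59.98 in 3AKO. The circadian repressor gene Bhlhe40 had 23.6 and 16.1 CPM in WT and 161 and 50.8 in 3AKO. Ddit4, an inhibitor of mTOR complex 1, had the highest log2 ratio of any named gene, 3.67, but was read in few cells: 21.6% of 3AKO (13.5 to 31.6%) and 5.62% of WT (1.85 to 12.6%), with 35.4% of its 3AKO reads and 57.1% of its WT reads in a single cell. The proline hydroxylase P4ha2, the oxygen sensor Egln3 and the nuclear receptor Rora had 1.12, 0.76 and 1.74. Beside them, 3BKO against the same WT cells gave 0.06 for Bnip3, -0.10 for Ndrg1, 2.92 for Ddit4 and 1.20 for Egln3.

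**Figure D3:**
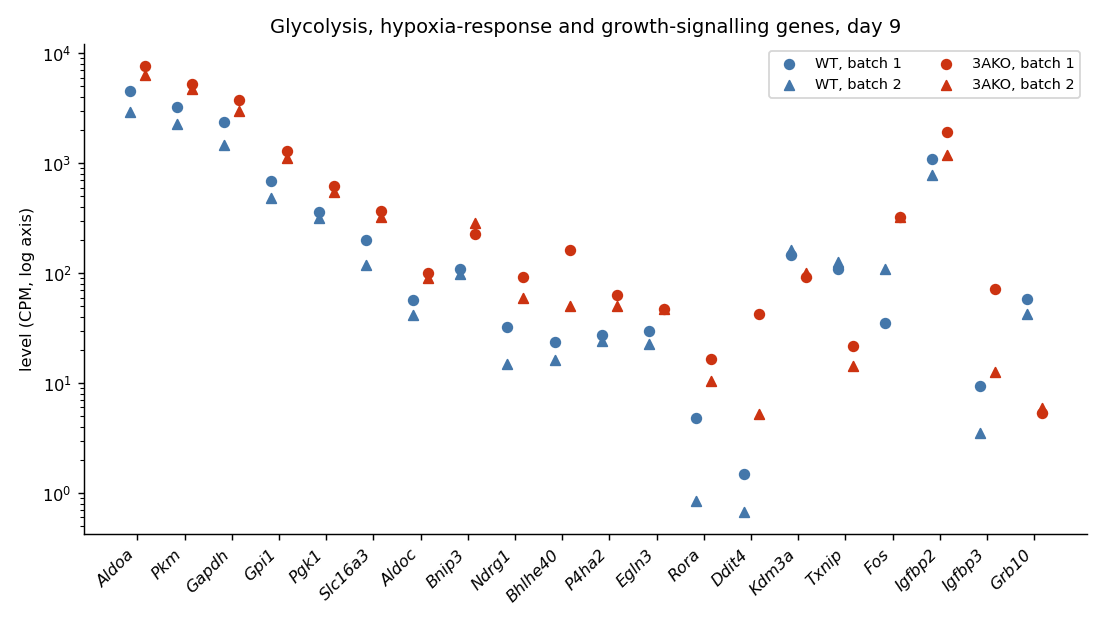
Level in CPM on a log axis (y axis) of 20 named genes (x axis) in WT and 3AKO on day 9, with circles for batch 1 and triangles for batch 2. The 7 glycolysis genes at the left lie above WT in both batches, Kdm3a, Txnip and Grb10 lie below, and Ddit4 and Igfbp3 differ most between the batches of 3AKO.

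Txnip, which blocks glucose uptake and is normally raised by glucose, was among the lowest genes. It had 109 and 127 CPM in WT and 21.6 and 14.2 in 3AKO, a log2 ratio of -2.58, and 19.4% of its exon bases overlap the gene model Gm15441. Reads were found in 33.7% of WT cells (24 to 44.5%) and 12.5% of 3AKO cells (6.41 to 21.3%). Against the same WT cells, 3BKO gave 0.92. The citrate cycle genes, which oxidize the product of glycolysis, had a median of -0.26 over 23 tested members, or -0.16 relative to all tested genes. In both batches 11 were below 0 and 2 above, where 32.9% and 23.9% of all tested genes were. Both called members (8.70% against 5.96% of all tested genes) were lower. They were Suclg1, from the window just before the chromosome 6 stretch, and the succinate dehydrogenase subunit Sdhd (-0.71). Nuclear genes of complex I and of complexes III to V had medians of -0.19 and -0.16, negative in batch 1 and positive in batch 2.

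Cytosolic ribosomal protein genes formed the broadest small shift. Of 85 tested genes, 64 (against 23.9% of all tested genes) were above 0 in both batches and 5 below, although Rps12 alone passed the 1.5-fold limit. Their median log2 ratio was 0.28, with 0.25 in batch 1 and 0.55 in batch 2. The summed level of the median cell was 100955 CPM in WT and 117144 in 3AKO in batch 1, and 66317 and 97826 in batch 2, and 51 of 61 and all 27 3AKO cells lay above the WT median. Rps12 had 538 and 319 CPM in WT and 866 and 644 in 3AKO. Processed pseudogenes, many of which derive from ribosomal protein genes, had a median of 0.18 over 668 tested. The mitochondrial ribosomal proteins went the other way in batch 1 alone, with medians of -0.27 and 0.02 over 79 genes. Of these, 2 were lower, Mrps6 and Mrpl19 (2.53%, below the 5.96% of all tested genes), and none was higher.

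The 93 germline genes listed act in meiosis, in germ cells or in silencing transposons there, and many carry a CpG-rich promoter that is methylated in somatic cells. Only 23 were detected widely enough to be tested. Of these, 7 were higher (30.4% against the 3.65% of all tested genes) and Mlh3 was lower. Their median log2 ratio was 0.53, with 0.41 and 0.80 in the batches. The limit for lists is a median at least 0.25 from that of all tested genes, with the same sign in each batch. With cells thinned to 50000 reads the germline list no longer passed it. Genes that were tested had to be detected in one of the genotypes, so the share says nothing of the others. The promoters of 4 of the higher genes are shown because CpG sites are the substrate of DNMT3A. Each is the 250 bases before the start of the RefSeq transcript in GRCm38.p6, 5′ to 3′ on the strand of the gene, with CpG sites in capitals.
Dazl (chr17:50293621-50293870, minus strand): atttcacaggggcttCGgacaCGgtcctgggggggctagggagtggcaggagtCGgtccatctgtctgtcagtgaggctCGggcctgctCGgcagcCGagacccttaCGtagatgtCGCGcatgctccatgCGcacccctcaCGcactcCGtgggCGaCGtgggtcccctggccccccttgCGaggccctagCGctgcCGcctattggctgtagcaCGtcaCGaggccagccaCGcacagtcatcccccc
Smc1b (chr15:85131958-85132207, minus strand): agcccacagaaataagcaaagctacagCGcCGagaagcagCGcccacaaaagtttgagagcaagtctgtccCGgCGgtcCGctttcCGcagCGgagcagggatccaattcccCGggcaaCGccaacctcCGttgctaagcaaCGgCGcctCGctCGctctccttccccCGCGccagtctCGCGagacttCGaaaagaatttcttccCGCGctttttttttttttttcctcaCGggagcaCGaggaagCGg
Hormad1 (chr3:95559427-95559676, plus strand): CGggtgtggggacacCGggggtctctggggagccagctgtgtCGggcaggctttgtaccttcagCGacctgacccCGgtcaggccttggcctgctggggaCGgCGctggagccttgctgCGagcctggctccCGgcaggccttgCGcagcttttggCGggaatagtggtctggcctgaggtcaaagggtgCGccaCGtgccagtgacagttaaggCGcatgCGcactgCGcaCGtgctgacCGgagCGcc
Fkbp6 (chr5:135350045-135350294, minus strand): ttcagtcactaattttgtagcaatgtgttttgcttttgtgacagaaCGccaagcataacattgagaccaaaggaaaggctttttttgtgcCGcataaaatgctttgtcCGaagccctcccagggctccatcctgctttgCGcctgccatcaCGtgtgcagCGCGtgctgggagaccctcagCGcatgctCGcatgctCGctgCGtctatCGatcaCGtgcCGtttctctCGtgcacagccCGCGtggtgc
These hold 20, 25, 19 and 17 CpG sites. RefSeq windows from 250 bases before to 50 after the start were matched for 20 of the 23 tested germline genes, and held a median of 17.5 CpG sites against 11 over all 20828 matched promoters. TCCCGC, a core of E2F sites, searched on both strands, was present in 13 of the 20 windows (65%) and in 23.8% of all promoters. CACGTG, a palindromic E-box, was present in 5 of 20 (25.0%) and in 7.67% of all promoters, and occurs 2 times each in the windows of Hormad1 and Fkbp6. The 73.5% of all tested genes with a window had a median of 22 CpG sites, more than the 17.5 of the tested germline genes. Windows were matched for 6 of the higher germline genes, with a median of 22.5 CpG sites, and that of the lower gene Mlh3 held 22. The windows of all tested genes held TCCCGC in 38.5% and CACGTG in 11.3%. These matches describe the letters and not binding.

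Dazl, an RNA-binding protein needed for germ cell development, had 16.6 and 5.52 CPM in WT and 103 and 50.5 in 3AKO, a log2 ratio of 2.58. Smc1b, the meiotic cohesin subunit, had 7.22 and 5.86 CPM in WT and 27.5 and 63.8 in 3AKO, and was read in 38.6% of 3AKO cells (28.4 to 49.6%) and 8.99% of WT cells (3.96 to 16.9%). Hormad1, a component of the meiotic chromosome axis, had 16.9 and 20.9 CPM in WT and 43 and 101 in 3AKO. Gpat2, which acts in piRNA production, Fkbp6, a cochaperone of the same pathway, and the testis tubulin Tuba3a had log2 ratios of 1.78, 1.57 and 1.76, the last with no read in WT batch 2, where a count of 0 allows up to 0.251 CPM. Dnd1, an RNA-binding protein of germ cells, had 17.1 CPM in both WT batches and 32.4 and 30.5 in 3AKO. Mlh3, a mismatch repair protein of meiotic recombination that lies on chromosome 12 between 80 and 90 Mb, had 23.1 and 23 CPM in WT and 7.81 and 7.77 in 3AKO. For 3BKO against the same WT cells, the ratios were 2.59 for Dazl, -0.54 for Smc1b, 0.35 for Hormad1 and -1.18 for Dnd1.

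Outside the list, Taf9b, a TFIID component on the X chromosome, had 5.20 and 1.34 CPM in WT and 26.9 and 57.8 in 3AKO, a log2 ratio of 3.06, although 53.3% of its WT reads came from 1 cell. Mpv17l, a peroxisomal or mitochondrial membrane protein, had 2.80 and 2.34 CPM in WT and 30.1 and 17.5 in 3AKO, and was read in 40.9% of 3AKO cells and 4.49% of WT cells. Neither gene shares exon bases with another gene.

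**Figure D4:**
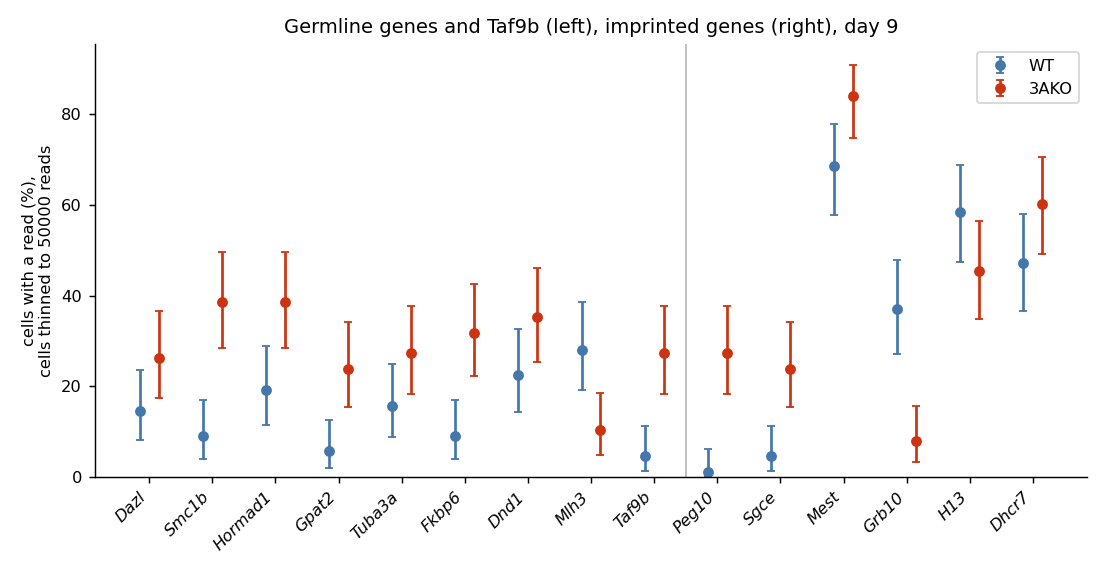
Share of cells with at least 1 read (y axis, percent, each cell thinned to 50000 reads) for germline genes and Taf9b at the left of the grey line and imprinted genes at the right, with exact 95% intervals that cover counting error. The shares for Smc1b are 38.6% in 3AKO and 8.99% in WT and those for Grb10 7.95% and 37.1%, and since each genotype is 1 sample the intervals are no test of the genotypes.

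Of 18 tested imprinted genes read from the paternal allele, 3 were higher (16.7%) and none lower. Of 17 read from the maternal allele, 1 was higher (5.88%) and 2 lower (11.8%). Among all tested genes, 3.65% were higher and 5.96% lower. The group medians, -0.02 and -0.19, were near that of all tested genes. Peg10, a retrotransposon-derived gene of the placenta, and its neighbour Sgce share a promoter region on chromosome 6 (Peg10 at 4747306 to 4760517). Peg10 had 1.79 and 0 CPM in WT and 18 and 9.29 in 3AKO, a log2 ratio of 2.82, and was read in 27.3% of 3AKO cells (18.3 to 37.8%) and 1.12% of WT cells (0.0284 to 6.10%), all WT reads coming from 1 cell. Sgce had 16.5 and 0 CPM in WT, 51.2% of it in 1 cell, and 29.1 and 19.99 in 3AKO. Both genes belong to the first window of chromosome 6, the only one above the limit. Its summed level in the median cell was 760 CPM in WT and 966 in 3AKO in batch 1 but 861 and 785 in batch 2, and 3BKO lay at -0.24 and 0.51 there. Mest, a hydrolase gene further along the chromosome, had 406 and 205 CPM in WT and 1288 and 479 in 3AKO, and 60 of 88 3AKO cells were above the WT median. In 3BKO cells, Sgce had 2.87 CPM and Mest 152. Of the exon bases of Mest 23.1% overlap Copg2, and 31% of its 3AKO reads and 34.4% of its WT reads came from 1 cell.

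Grb10, an imprinted brake on insulin receptor and mTOR signalling, was the third lowest gene of the comparison. It had 57.9 and 42.6 CPM in WT and 5.37 and 5.96 in 3AKO, a log2 ratio of -3.02, and was read in 37.1% of WT cells (27.1 to 48%) and 7.95% of 3AKO cells (3.26 to 15.7%). H13, a signal peptide peptidase, was lower (-0.83) and the cholesterol enzyme Dhcr7 higher (0.87). Allele of origin was not read here.

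Grb10 was also listed with genes of growth signalling. Of 26 tested genes of the insulin, IGF and mTOR list, 5 were lower (19.23% against 5.96% of all tested genes) and 3 higher (11.5% against 3.65%). The median of -0.08 was near the -0.10 of all tested genes. Besides Grb10, the lower genes were the catalytic subunit Pik3ca (-1.34), the mTOR complex 1 scaffold Rptor (-1.30), its substrate kinase Rps6kb1 (-1.11) and the transcription factor Foxo1 (-0.88). Rps6kb1 had 88.5 and 77.7 CPM in WT and 43.1 and 32.3 in 3AKO. The higher genes were Ddit4 and the IGF-binding proteins Igfbp2 and Igfbp3. Igfbp2 had 1090 and 788 CPM in WT and 1912 and 1187 in 3AKO, with 73 of 88 3AKO cells above the WT median. Igfbp3 had 9.36 and 3.51 CPM in WT and 72.3 and 12.7 in 3AKO, 38.1% of it in 1 cell.

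Immediate early genes, which respond within minutes to serum, stress or handling, had a median of 0.31 over 14 tested members, with 7 above 0 in both batches and 1 below. Fos (chromosome 12) had 35.4 and 110 CPM in WT and 322 and 325 in 3AKO, a log2 ratio of 2.39, and was read in 54.5% of 3AKO cells and 23.6% of WT cells. Zfp36 and Ccn2, a matrix protein gene, were higher at 1.23 and 1.72, and Jund was lower at -0.78 from 2.87 CPM in WT, with 52.6% of its exon bases shared with Gm11175. The 11 tested genes listed as signs of stressed or dying cells had a median of 0.11, with 0.23 and -0.08 in the batches, and the nuclear RNA Neat1 alone was called, lower at -1.32. Fos lies in the chromosome 12 window in which 17 of 57 genes were lower.

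Cell type markers gave the following picture. The 10 epiblast markers, all tested, summed to 4049 CPM in WT and 3846 in 3AKO, and Zfp42 was the only one called. The 10 neural ectoderm markers summed to 125 and 199 CPM with 4 tested and none called, and the 10 mesoderm, 10 endoderm and 5 trophoblast markers to at most 59.3 CPM in either genotype over both batches with none tested. The 5 neuron markers summed to 351 and 294 CPM and the 5 markers of blood and endothelium to 41.2 and 33.4, none called. Mesoderm markers reached 67.2 CPM in 3AKO batch 2 and 15.7 in batch 1, against 7.19 and 13.4 in WT. Over a wider list of 26 mesoderm genes, the median cell of batch 2 had 5.62 CPM in WT and 0 in 3AKO, and the highest 291 and 1663. In batch 1 the median cell had 9.94 CPM in WT and 39.6 in 3AKO. Of the wider list of early neural genes, 3 of 14 tested were higher (21.4% against 3.65% of all tested genes). None was lower, where 5.96% of all tested genes were, and the median was -0.03. The summed level of the median cell was lower in 3AKO, with 1048 CPM in WT and 750 in 3AKO in batch 1 and 976 and 793 in batch 2, and 17 of 61 and 9 of 27 3AKO cells exceeded the WT median. Crabp1, which binds retinoic acid, had 32.9 and 18.4 CPM in WT and 116 and 95.9 in 3AKO, 33.3% of it in 1 cell. The anterior hindbrain factor Gbx2 and the adhesion gene Nrcam had log2 ratios of 2.11 and 1.68, but 43.5% of the exon bases of Gbx2 overlap another gene.

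Among epithelial genes, the simple-epithelium keratin Krt18 had 6.25 and 8.37 CPM in WT and 64.5 and 19.3 in 3AKO, 45.9% of it in 1 cell, and the placental cadherin Cdh3 had 20.7 and 7.53 against 41.9 and 41.3. Both lower members of the cadherin and adhesion list encode desmosomal proteins. The desmoplakin gene Dsp had 13.2 and 28.0 CPM in WT and 4.01 and 0.303 in 3AKO, and plakoglobin, Jup, had 171 and 102 against 108 and 56.9. The cadherin and adhesion list had a median of 0.18 over 20 tested genes. Of these, 1 was higher (5% against 3.65% of all tested genes) and 2 were lower (10% against 5.96%). Cdh3 was read in 50% of 3AKO cells and 16.9% of WT cells.

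Of 18 tested Wnt pathway genes, 3 were higher (16.7% against 3.65% of all tested genes) and Tcf7l1 was lower. The list median was -0.27 over both batches, but -0.01 in batch 1 and -0.29 in batch 2. The secreted antagonist Sfrp2 had 30.3 and 29.9 CPM in WT and 142 and 70.2 in 3AKO (16.1% of its exon bases overlap Gm26771), and was read in 55.7% of 3AKO cells (44.7 to 66.3%) and 34.8% of WT cells (25.0 to 45.7%). The receptor-degrading ligase Znrf3 and the coreceptor Lrp6 had log2 ratios of 1.39 and 0.80. In the Notch pathway, the ligand-like Dll3 was higher at 1.42 and the inhibitor Numb lower at -1.73. Numb lies on chromosome 12 between 80 and 90 Mb, as do Acot1 (-2.45), Aldh6a1 (-2.33) and Nek9 (-2.40), which were among the 15 lowest genes of the comparison.

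Of 26 tested secreted and small calcium-binding genes listed as rising in EBs, 5 were lower (19.23% against 5.96% of all tested genes) and Igfbp2 was higher, with medians of 0.03 and -0.29 in the batches. S100a6 had 60.7 and 91.4 CPM in WT and 30.9 and 7.27 in 3AKO. The galectin gene Lgals1 had 374 and 286 CPM in WT and 202 and 53.5 in 3AKO, where 40.1% of its reads came from 1 cell. Fxyd2, a sodium pump subunit, had a log2 ratio of -2.06, and Serpinf1, a secreted antiangiogenic factor, had 42.2 CPM in WT and 20.6 in 3AKO. Interferon-response genes included 3 lower of 11 tested (27.3% against 5.96% of all tested genes), namely Ifitm3 (-0.85), Ifitm2 (-0.70, 40.9% of exon bases shared with Gm45717) and the RNA sensor Ddx58 (-1.36), while the transcription factor Irf1 was higher with 93.7 and 59 CPM in WT and 178 and 188 in 3AKO.

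Zinc finger genes with Zfp numbers, most of which encode repressors of transposons and other targets, contained 31 lower genes (14% of 222 tested, against 5.96%). Another 9 were higher (4.05%, near the 3.65% of all tested genes). In both batches 81 were below 0 and 35 above, where 32.9% and 23.9% of all tested genes were. Of the 31, 29 lay outside the chromosome stretches. Zfp948 had 32 and 188 CPM in WT and 11.7 and 41.2 in 3AKO, and Zfp850 had 17.5 and 102 against 6.95 and 14.4. Zfp729b had a log2 ratio of -2.86, but 40.7% of its exon bases overlap another gene, and members of these clusters share sequence, which leaves their counts uncertain. Zfp992 was higher (1.38), as was Zfp748 (2.26), for which 56.1% of the 3AKO reads came from 1 cell.

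Replication genes showed few calls. Of 49 tested S phase genes, 4 were lower (8.16%, near the 5.96% of all tested genes) and none higher, and the median was -0.24. In both batches 21 were below 0 and 5 above, where 32.9% and 23.9% of all tested genes were. These were the DNA primase Prim1 (-0.56), the chromatin factor Atad2 (-0.93), the helicase component Gins3 (-0.95) and the cyclin Ccne2 (-0.75), none of them in the 3 stretches. Cdk2, the partner of Ccne2, had 133 and 88.9 CPM in WT and 70.9 and 44.9 in 3AKO. The 56 tested genes of G2 and mitosis had a median of -0.08 and no call.

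**Figure D5:**
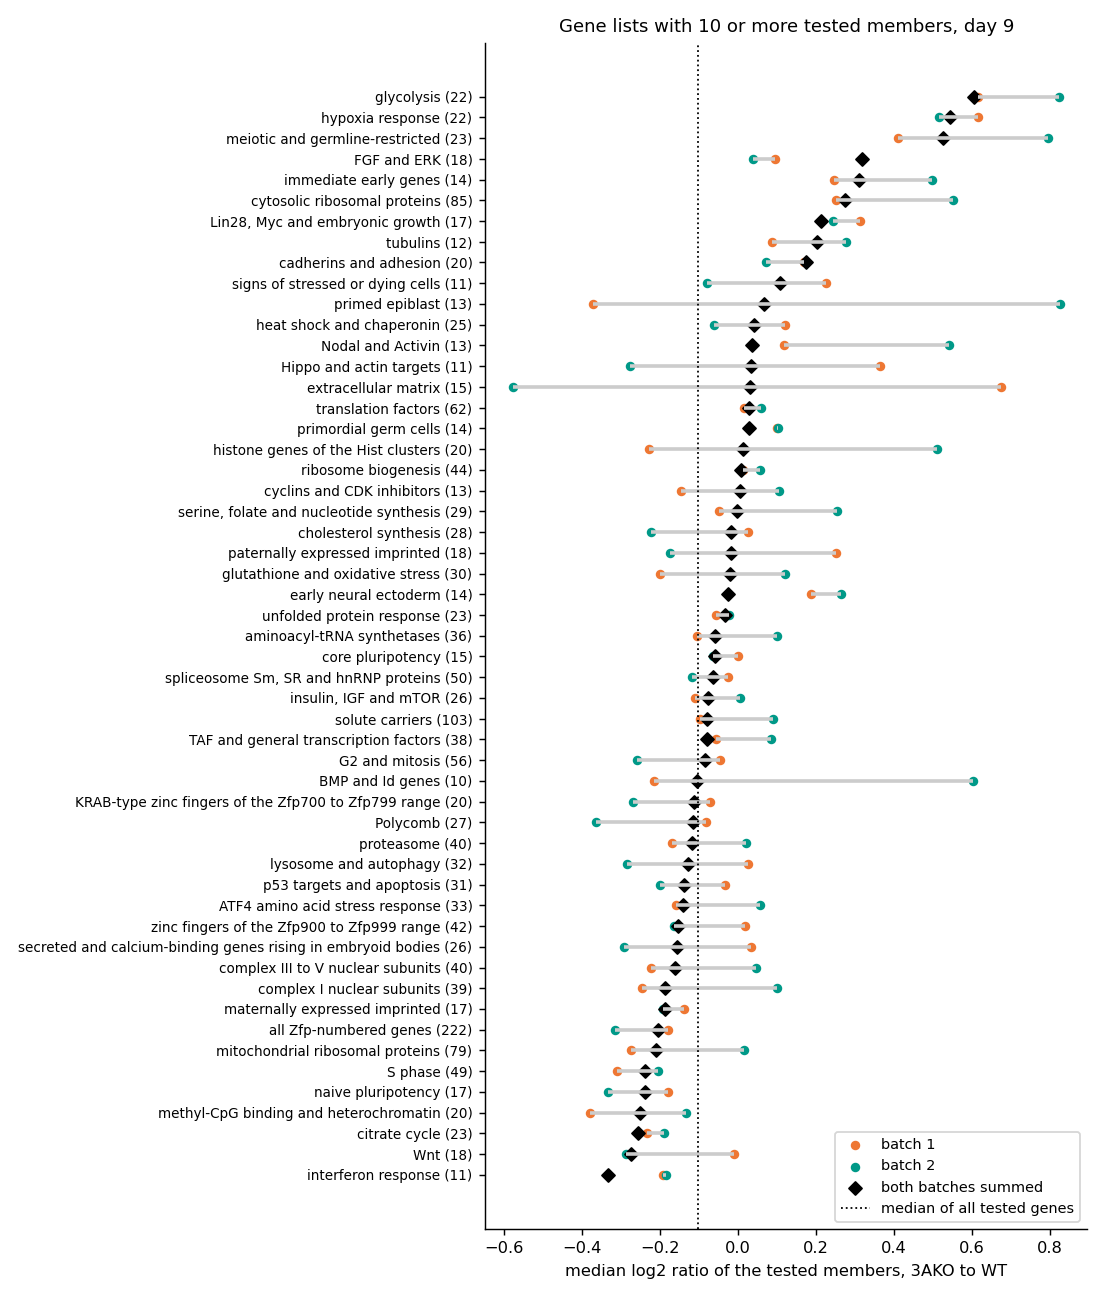
Median log2 ratio of 3AKO to WT (x axis) of each gene list with at least 10 tested members (y axis, number tested in brackets), with colored points for each batch, diamonds for both summed and a dotted line for the median of all tested genes, -0.10. Over both batches summed, glycolysis, the hypoxia response and germline genes have the highest medians (0.61, 0.54 and 0.53), while primed epiblast and extracellular matrix genes differ in sign between batches.

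Of 79 gene lists, 67 had at least 4 tested members, and for 13 the median lay at least 0.25 from that of all tested genes with the same sign in each batch. The 12 higher lists were those of glycolysis, the hypoxia response, germline, ribosomal protein and immediate early genes, and, with medians from 0.18 to 1.21, trophoblast and simple epithelium, MHC class I, FGF and ERK, Lin28 and Myc, definitive endoderm, tubulin and cadherin genes. In cells thinned to 50000 reads, 7 of the 13 still passed. The germline, trophoblast, definitive endoderm, cadherin, Lin28 and Myc, and eye field lists did not. The cadherin, tubulin, and FGF and ERK lists passed in neither batch alone. The median of the trophoblast list turned to -0.45 in thinned cells and -0.14 at 10% detection. The eye field list, with 4 tested genes, was the lower one, and no longer passed with no filter on cells, in thinned cells, at 40% detection or without the stretches. For the FGF and ERK list the batch medians were 0.10 and 0.04 beside 0.32 over both, and its called members, Spred2 and Fgf1, were lower. Lists for the proteasome, the unfolded protein response, p53 targets and the spliceosome had medians between -0.14 and -0.03. No gene of the Hox, Rhox, clustered protocadherin or lipoxygenase lists was detected widely enough to be tested.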

How the data were processed

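Per the labels and the study's methods, the authors trimmed 75-base single-end reads (Trim Galore 0.5.0), aligned them to mm10 with STAR 2.7.1a and counted them per gene with featureCounts 1.6.1. The deposited values are raw read counts per gene and cell, without molecular identifiers, and 26 columns without a sample were not used. Kept cells were summed by genotype and batch and divided by the total to give CPM. The members and gene lists were chosen with earlier results of these data known. Named genes are Dnmt3a, Dnmt3b, Dnmt3l, Dnmt1, Tet1 and Tet2, the 15 highest and 15 lowest ratios among named genes at least 2-fold apart in both batches, and in each list up to 6 called members a direction, or 3 abundant members where fewer were called; not all allowed genes are named. Group medians were compared with that of all tested genes, with no test, and "tested" means only that a gene passed the detection limit. Positions and overlaps come from GENCODE vM21. Python 3.11.15 was used, with edgeR 4.0.16 and DESeq2 1.42.0 for scaling factors only. Cells, batches, scaling, pseudocount, detection and fold were varied as alternatives. The strand setting is not given in the sources used here. Some results are not reported here.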

Additional observations from a re-analysis of the deposited data

How the results depend on the processing

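No paired analysis was possible because each genotype is 1 sample, the numbers in the labels only name cells, and no value comes from a test. The counts of higher and lower genes depended most on asking for both batches. Batch 1 alone gave 1029 higher and 1503 lower genes and 22 lists past the limit, and batch 2 alone 2096, 2734 and 28. A pseudocount of 10 CPM gave 152 higher and 264 lower, detection in 40% of cells 152 and 299, detection in 10% of cells 530 higher, and a 2-fold limit 98 and 146. The Dnmt3a ratio was -2.54 in batch 2 alone, -2.84 as a mean of single-cell CPM, -2.93 in thinned cells, -2.91 without the top cell and -2.32 with a pseudocount of 10 CPM. Of the lists past the limit, the median turned for definitive endoderm in batch 1 alone (-0.067) and at 10% detection (-0.054), for tubulins in batch 2 alone (-0.044), and for trophoblast and simple epithelium in thinned cells (-0.45) and at 10% detection (-0.14). Medians of lists within the limit, many near 0, changed sign too, as from 0.70 to -0.42 in batch 2 alone for extraembryonic endoderm. The TET and base excision list, within the limit, passed it as lower with a stricter filter on cells, in batch 2 alone and in thinned cells. It also did so with a pseudocount of 10 CPM, at 40% detection and without the stretches. The germline list fell within the limit in thinned cells and at 40% detection, while those of glycolysis, the hypoxia response and ribosomal proteins stayed past it in both. In 1356 recomputed ratios of named genes, 216 moved and none changed sign, and in 42 medians of the 3 stretches 13 moved and none changed sign. Most of the named genes, and the stretches, were picked for the same direction in both batches. For them a batch alone could not change the sign. Leaving out the stretches, chosen after seeing the data, gave 332 higher and 449 lower genes, and the eye field and definitive endoderm lists no longer passed. The causes of these shifts were not tested. Depth and the number of cells limit the weakly expressed genes most.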
